A study of Mus musculus with 2 samples.

Results

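The 10 genes described here encode a hexose transporter and enzymes of glycolysis: Slc2a3, Hk1, Gpi1, Pfkp, Pfkm, Tpi1, Pgam1, Pgam2, Eno1 and Eno4. They were chosen by symbol, with no measured value in the rule, and all 10 were found among the 51868 rows of the count table. All 10 also had enough UMIs (unique molecular identifiers, which count captured RNA molecules) to be tested for differences between cell classes.

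Testis tissue of 2 wild-type C57Bl/6J Crl littermates, 8 weeks old, was dissociated and profiled with droplet-based 3′ single-cell RNA sequencing, and the labels name no transgene or treatment. A part of the testis was digested and passed through a cell strainer, a step meant to keep somatic cells few. Mouse 1 gave 1237 cells with 27450497 UMIs and mouse 2 gave 1315 cells with 30302332 UMIs, with medians of 17871 and 19184 UMIs per cell and no cell barcode in common. K-means clustering without the 10 genes gave 4 named germ cell classes, each resting on listed marker genes: early spermatocytes (163 cells), pachytene or later spermatocytes (526), round spermatids (447) and elongating or condensing spermatids (707, in clusters of 514 and 193 cells). A further cluster of 690 cells stayed unnamed, because its best-scoring class, the round spermatids, had only 1 of 13 markers raised, and clusters of 7 Sertoli-like, 7 spermatogonium-like and 5 Leydig-like cells were too small to test. The smaller of the elongating clusters also had 9 of 13 round spermatid markers raised beside all 14 of its own. Likewise, the spermatogonium-like cluster had 10 of 14 early spermatocyte markers raised beside 10 of 14 of its own. Levels are CPM, a gene's UMIs scaled to a common total of UMIs per mouse and class, and the class sums held 1082152 to 10425603 UMIs. Intervals on levels and shares cover counting error only. Levels were compared between cells and not between genes, whose UMI totals are given as counts only. Each fold change comes from edgeR's quasi-likelihood test on UMI sums per mouse and class, with p-values adjusted by the Benjamini-Hochberg method over 14994 rows. All sums come from the same 2 mice. The values are scaled by TMM, which sets the bulk of the genes level between the sums.

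Glucose enters cells through transporters of the SLC2A family and is then split, by a chain of cytosolic enzymes, into pyruvate and lactate. Hexokinase traps the sugar as a phosphate, phosphoglucose isomerase and phosphofructokinase prepare it for cleavage, and triose-phosphate isomerase, phosphoglycerate mutase and enolase act on the triose products. Spermatocytes in the tubule are known to live largely on lactate supplied by Sertoli cells, while mature sperm run glycolysis in the tail, where several of the enzymes are anchored to the fibrous sheath. Phosphofructokinase is the classical control point of the pathway.

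The sequences upstream of the annotated starts are shown for members that rose into the spermatids (Hk1 and Gpi1), for the phosphofructokinase gene with a single annotated start (Pfkp, where Pfkm had 4) and for the members that carry a GTTGCC match (Eno4 and Pgam2). They are the 250 bases before a transcript start in RefSeq on GRCm38.p6, given 5′ to 3′ on the gene's own strand, and 9 of the 10 members, with 15 starts, matched that table, while Slc2a3 did not. Capitals mark GGGCGG, the letters of the GC box, and GTTGCC, the letters of an X-box core, on either strand.
Hk1 outer start, chr10:62379909-62380158, minus strand: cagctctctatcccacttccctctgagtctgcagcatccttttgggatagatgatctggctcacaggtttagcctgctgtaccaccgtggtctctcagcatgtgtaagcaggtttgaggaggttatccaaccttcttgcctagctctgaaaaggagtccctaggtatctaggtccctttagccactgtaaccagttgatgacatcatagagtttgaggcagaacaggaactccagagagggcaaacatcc
Hk1 inner start, chr10:62340422-62340671, minus strand: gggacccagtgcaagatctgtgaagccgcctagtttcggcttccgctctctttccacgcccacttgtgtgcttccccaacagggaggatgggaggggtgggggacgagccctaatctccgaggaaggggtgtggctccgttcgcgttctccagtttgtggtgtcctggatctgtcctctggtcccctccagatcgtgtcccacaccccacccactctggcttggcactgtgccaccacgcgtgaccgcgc
Gpi1, chr7:34230337-34230586, minus strand: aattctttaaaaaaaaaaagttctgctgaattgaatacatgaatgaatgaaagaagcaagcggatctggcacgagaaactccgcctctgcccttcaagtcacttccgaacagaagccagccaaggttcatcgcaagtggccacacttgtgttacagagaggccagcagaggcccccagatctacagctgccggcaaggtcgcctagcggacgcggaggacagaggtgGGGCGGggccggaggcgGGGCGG
Pfkp, chr13:6648772-6649021, minus strand: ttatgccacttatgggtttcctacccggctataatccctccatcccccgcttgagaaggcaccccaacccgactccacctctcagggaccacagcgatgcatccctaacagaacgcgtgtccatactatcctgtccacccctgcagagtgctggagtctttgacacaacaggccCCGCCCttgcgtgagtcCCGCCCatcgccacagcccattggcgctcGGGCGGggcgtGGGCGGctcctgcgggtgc
Eno4, chr19:58943175-58943424, plus strand: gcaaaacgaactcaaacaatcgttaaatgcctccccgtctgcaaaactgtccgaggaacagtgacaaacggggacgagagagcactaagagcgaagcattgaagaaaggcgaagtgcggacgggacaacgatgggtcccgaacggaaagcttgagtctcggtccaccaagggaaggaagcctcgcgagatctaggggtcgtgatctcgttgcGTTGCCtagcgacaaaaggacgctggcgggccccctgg
Pgam2, chr11:5803797-5804046, minus strand: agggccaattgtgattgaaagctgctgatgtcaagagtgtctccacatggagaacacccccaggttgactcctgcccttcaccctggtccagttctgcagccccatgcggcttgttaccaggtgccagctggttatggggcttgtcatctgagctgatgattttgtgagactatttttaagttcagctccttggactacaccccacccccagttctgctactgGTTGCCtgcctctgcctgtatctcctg

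GGGCGG lay in 5 of the members' 15 windows (of Eno1, Gpi1, Pfkp and Tpi1), and 32.7% of all 32851 promoters in the table held it. GTTGCC lay in 2 of the 15 windows (of Eno4 and Pgam2), against 10.4% of all promoters. The letters TATAAA, TGACGTCA and TGACG, searched on both strands, were in none of the members' windows, against 12.4%, 1.55% and 17.8% of all promoters. Every TGACGTCA match also counted as a TGACG match. No window of either Hk1 start held any of the letters searched. Tags at the 3′ end do not tell which of the starts a UMI came from.

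Counted over the 10 members, 7 were higher and 0 lower in pachytene or later than in early spermatocytes, where 24.9% of all rows tested were higher and 23.4% lower. At an unadjusted p under 0.05 edgeR also found 0 members lower, a threshold at which the share of all rows was not computed. DESeq2 found 0 members lower at an adjusted p under 0.05, against 3926 of all 14994 rows. The members' median log2 fold change was 0.83, against 0.02 over all rows. From pachytene or later spermatocytes to round spermatids 4 members (Hk1, Gpi1, Tpi1 and Eno4) were higher and 4 (Slc2a3, Pfkp, Pfkm and Pgam1) lower, with backgrounds of 37% and 37.3% and a median of −0.04 against −0.11. From round to elongating spermatids 5 members (Hk1, Gpi1, Tpi1, Pgam2 and Eno1) were higher and 2 (Pfkp and Pfkm) lower, with backgrounds of 27.1% and 26% and a median of 0.57 against −0.02.

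**Figure D1:**
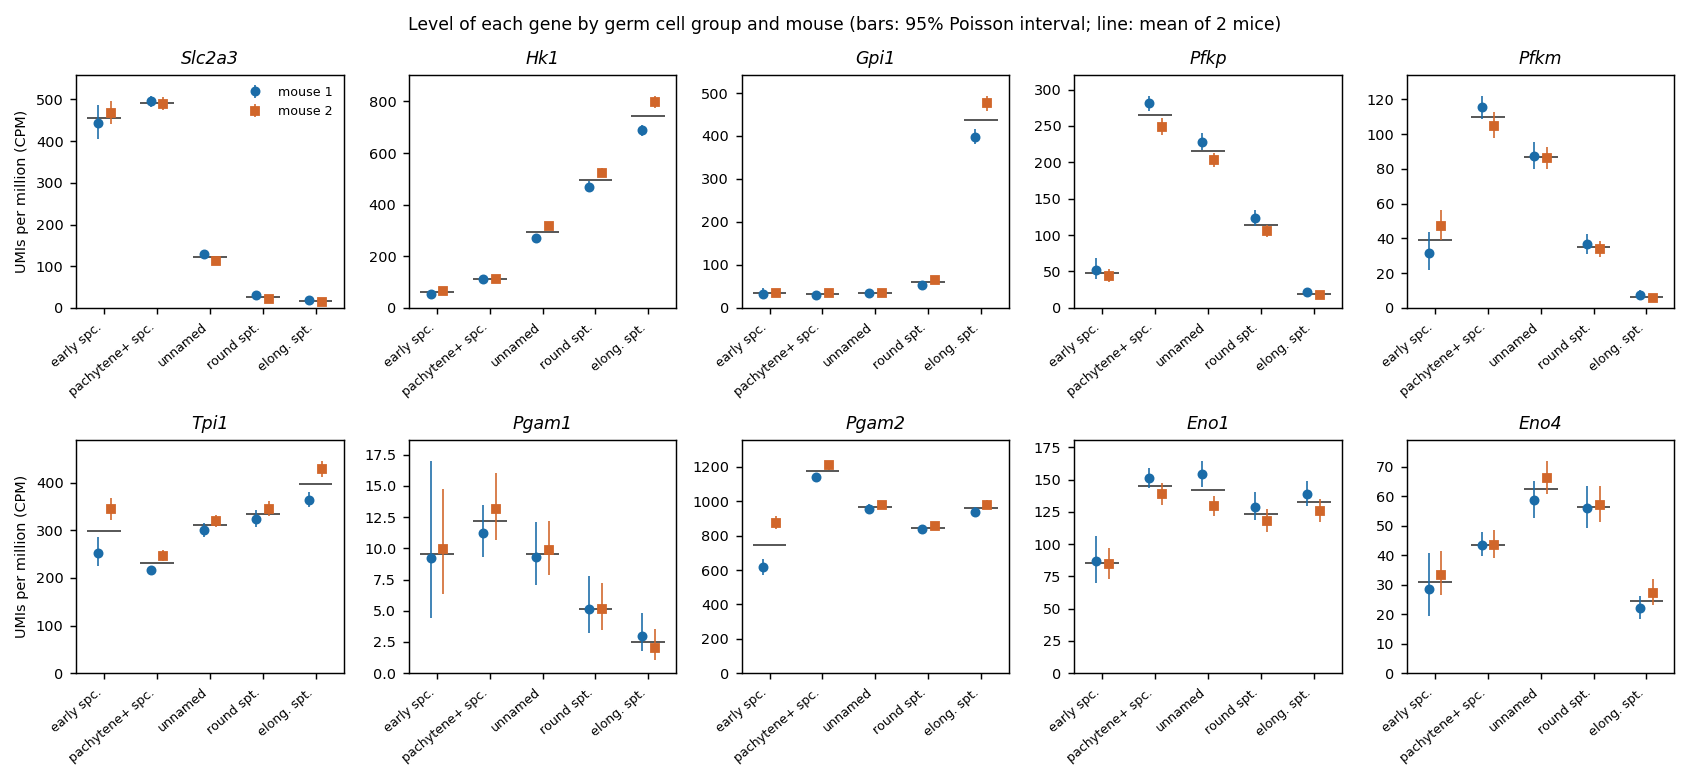
Level of each of the 10 genes in CPM (linear axis from 0) in early spermatocytes, pachytene or later spermatocytes, the unnamed cluster, round spermatids and elongating or condensing spermatids. Circles and squares are mouse 1 and mouse 2 with 95% Poisson intervals, and the grey line is their mean: Hk1 and Gpi1 were highest in elongating spermatids (743 and 437 CPM), Pfkp, Pfkm and Slc2a3 in pachytene or later spermatocytes (265, 110 and 493 CPM).

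Slc2a3, which encodes the high-affinity glucose transporter GLUT3 (chr6:122727809-122801640, minus strand, GRCm38 as are all gene positions here), was a spermatocyte transcript in these data. It held 444 and 467 CPM in early spermatocytes of mouse 1 and of mouse 2, and 495 and 490 in the pachytene or later class. The unnamed cluster held 130 and 112, round spermatids 29.8 and 21.1, and elongating spermatids 17.8 and 13.5. The order of the classes was the same in both mice, and the mice of neighbouring classes did not overlap at any place in it. Slc2a3 fell by 3.97 ± 0.18 on the log2 scale (SE, adjusted p = 3.38e-14, edgeR) from pachytene or later spermatocytes to round spermatids, the largest change of any member at any of the 3 steps. The earlier rise, 0.40 ± 0.15 (adjusted p = 0.0384), was lost when sums were scaled by library size only (0.11, adjusted p = 0.560) or tested with DESeq2 (0.16, adjusted p = 0.461). The late step gave 0.18 ± 0.20 (adjusted p = 0.485), and by library size only it was −0.68 (adjusted p = 0.00395).

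Slc2a3 was detected in fewer cells as well. With each cell thinned to 5000 UMIs, 92.5% and 90.4% of pachytene or later spermatocytes of mouse 1 and mouse 2 had a UMI, against 14.4% and 10.0% of round spermatids. Without thinning the shares in elongating spermatids were 23.0% and 18.4%, at median depths of 12322 and 13645 UMIs. In the Sertoli-like cluster 2 of 7 cells had a UMI (28.6%, exact 95% interval 3.67 to 71.0%), at median depths of 11559.5 and 12223. The spermatogonium-like cluster had 1 of 7 (14.3%, 0.361 to 57.9%) and the Leydig-like cluster 0 of 5 (0 to 52.2%). These intervals take in the late spermatid shares, which these few cells cannot tell apart from background.

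Hk1 encodes hexokinase 1 (chr10:62268855-62379908, minus strand), which commits glucose to the pathway, and it rose at every step. Levels were 54.5 and 66.1 CPM in early spermatocytes of the 2 mice, 111 and 114 in pachytene or later spermatocytes, 271 and 318 in the unnamed cluster, 469 and 524 in round spermatids and 688 and 799 in elongating spermatids. No class overlapped the next. The log2 fold changes were 1.15 ± 0.18 (adjusted p = 1.55e-05), 2.46 ± 0.16 (adjusted p = 1.03e-11) and 1.44 ± 0.15 (adjusted p = 6.12e-08). All 3 passed under each of the 14 alternatives tested, some of which moved only a few cells. Per cell, however, the elongating spermatids held 0.989 and 1.15 times the Hk1 UMIs of the round spermatids in mouse 1 and mouse 2, while their cells held fewer UMIs in all (medians of 12322 and 13645 against 22471.5 and 21629). The antisense gene Hk1os, which lies across the inner start, had 0 UMIs.

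Gpi1, phosphoglucose isomerase (chr7:34201330-34230336, minus strand), was low through meiosis and rose late. It held 33.3 and 34.7 CPM in early spermatocytes, 29.2 and 33.8 in pachytene or later spermatocytes and 34.1 and 33.6 in the unnamed cluster, and these 3 groups overlapped. Round spermatids held 54.1 and 65.0 CPM, above all of them. Elongating spermatids then reached 399 and 476 CPM, 7.37 and 7.31 times the round spermatids of the same mouse. In UMIs per cell the same ratios were 4.97 and 5.51. The first step gave 0.15 ± 0.18 on the log2 scale (adjusted p = 0.534) and its sign changed with the scaling. The later steps were 1.25 ± 0.15 (adjusted p = 2.84e-07) and 3.73 ± 0.16 (adjusted p = 5.82e-14). Thinned to 5000 UMIs, 23.4% and 28.2% of round spermatids and 87.0% and 87.2% of elongating spermatids had a Gpi1 UMI. Gpi1 was not confined to late spermatids, although the other cell clusters were too small to test. The 7 spermatogonium-like cells held 268 CPM (20 UMIs, Poisson interval 163 to 413), above the spermatocyte levels. The 5 Leydig-like cells held 316 CPM (16 UMIs, 180 to 512). The 7 Sertoli-like cells held 23.6 CPM (2 UMIs, 2.86 to 85.2).

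The phosphofructokinase genes rose into pachytene and fell in both later steps, in which Hk1 and Gpi1 rose. Pfkp (chr13:6579768-6648777, minus strand) and Pfkm (chr15:98092589-98132451, plus strand) encode the platelet-type and muscle-type subunits of the enzyme. Pfkp held 52.7 and 44.2 CPM in early spermatocytes, 281 and 249 in pachytene or later spermatocytes, 228 and 203 in the unnamed cluster, 123 and 106 in round spermatids and 21.2 and 18.2 in elongating spermatids. Pfkm held 31.4 and 47.1, then 115 and 105, then 87.3 and 86.2, then 36.5 and 33.7, and last 7.42 and 5.56 CPM in the same order. Both peaked in pachytene or later spermatocytes, with no overlap between the mice of that class and any other. Only the early and round classes of Pfkm overlapped among neighbouring levels. Pfkp rose by a log2 fold of 2.76 ± 0.16 (adjusted p = 7.10e-11) and then dropped by 0.90 ± 0.14 (adjusted p = 6.92e-06) and 1.68 ± 0.16 (adjusted p = 1.43e-08). Pfkm rose by 1.70 ± 0.19 (adjusted p = 3.11e-07) and dropped by 1.34 ± 0.17 (adjusted p = 6.44e-07) and 1.57 ± 0.22 (adjusted p = 4.22e-06). These 6 changes kept their direction and passed under each of the 14 alternatives tested, some of which moved only a few cells.

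A minority of elongating spermatids held a UMI of each phosphofructokinase gene. Of elongating spermatids 8.65% in mouse 1 and 8.31% in mouse 2 had a Pfkm UMI, against 1 of 7 Sertoli-like cells (14.3%, exact 95% interval 0.361 to 57.9%) and 0 of 7 spermatogonium-like cells (0 to 41.0%), too few cells to set a background for these shares. For Pfkp the shares were 25.4% and 23.1%, against 1 of 7 Sertoli-like and 1 of 7 spermatogonium-like cells. Pfkl, the liver-type subunit gene, had 16 UMIs in all cells. The 3′ end of Pfkp overlaps Pitrm1 on the opposite strand.

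Tpi1, triose-phosphate isomerase (chr6:124810586-124814296, minus strand), stayed within a narrow CPM range. It held 253 and 344 CPM in early spermatocytes, where the 2 mice stood 0.44 apart on the log2 scale (95% interval 0.24 to 0.64 for counting error). Pachytene or later spermatocytes were lowest, at 216 and 247, and the unnamed cluster held 300.3 and 320.1, round spermatids 324 and 346, and elongating spermatids 364 and 429. The first step was −0.11 ± 0.17 (adjusted p = 0.630), and by library size only it was −0.38 (adjusted p = 0.0340). The second step was a rise of 0.85 ± 0.16 (adjusted p = 7.99e-05), which passed under each scaling of the sums but was not seen per cell. The third was 1.11 ± 0.16 (adjusted p = 6.78e-06) but 0.24 by library size only (adjusted p = 0.135). In UMIs per cell Tpi1 was 1.004 and 0.961 times as high in round spermatids as in pachytene or later spermatocytes of mouse 1 and mouse 2. It was 0.757 and 0.935 times as high in elongating as in round spermatids.

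Phosphoglycerate mutase was measured through Pgam2 (chr11:5801640-5803733, minus strand), the muscle-type gene, which gave 57458 UMIs over all cells, and through Pgam1 (chr19:41911923-41918660, plus strand), the brain-type gene, which gave 512. Pgam2 held 617 and 876 CPM in early spermatocytes, 1143 and 1209 in pachytene or later spermatocytes, 958 and 979 in the unnamed cluster, 837 and 856 in round spermatids and 939 and 980 in elongating spermatids. Its early spermatocytes differed between the mice by 0.51 on the log2 scale (95% interval 0.38 to 0.63), and their range took in the round spermatid values. The first step was a rise of 0.92 ± 0.17 (adjusted p = 0.000143). The second, −0.16 ± 0.17, did not pass (adjusted p = 0.413), while by library size only it was −0.47 (adjusted p = 0.00444). The third was 1.04 ± 0.17 (adjusted p = 2.52e-05), and by library size only 0.18 (adjusted p = 0.260). In UMIs per cell Pgam2 was 0.756 and 0.863 times as high in elongating as in round spermatids of mouse 1 and mouse 2.

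Pgam1 was sparse in germ cells. It held 9.24 and 9.91 CPM in early spermatocytes, 11.2 and 13.1 in pachytene or later spermatocytes, 9.33 and 9.84 in the unnamed cluster, 5.15 and 5.12 in round spermatids and 3.0 and 2.02 in elongating spermatids. It fell by 0.92 ± 0.25 on the log2 scale (adjusted p = 0.00257) from pachytene or later spermatocytes to round spermatids. The first step (0.59 ± 0.28, adjusted p = 0.0902) and the third (−0.17 ± 0.33, adjusted p = 0.691) did not pass, and the third was −1.03 by library size only (adjusted p = 0.00880). DESeq2 gave −0.69 for the second step (adjusted p = 0.0601). The small clusters held more Pgam1, at 224 CPM in Sertoli-like cells (19 UMIs, 95% Poisson interval 135 to 350.0), 316 in Leydig-like cells (16 UMIs) and 120.4 in spermatogonium-like cells (9 UMIs). These rest on 7, 5 and 7 cells and were not tested.

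Eno1 and Eno4 stand for enolase. Eno1 (chr4:150236721-150248879, plus strand) is the widely expressed alpha-enolase gene, and Eno4 (chr19:58943425-58971421, plus strand) encodes the divergent enolase of the sperm tail. Eno1 held 86.9 and 84.2 CPM in early spermatocytes and then stayed between 118 and 154 CPM in every other group and mouse, each group overlapping the next in the order of levels. It rose by 1.05 ± 0.15 on the log2 scale (adjusted p = 7.58e-06) at the first step. The second step gave 0.08 ± 0.14 (adjusted p = 0.596) and changed sign by library size only (−0.23, adjusted p = 0.0945). The third gave 0.96 ± 0.14 (adjusted p = 5.15e-06), against 0.10 by library size only (adjusted p = 0.498), and the CPM of the 2 classes overlapped. In UMIs per cell Eno1 was 0.727 and 0.803 times as high in elongating as in round spermatids of mouse 1 and mouse 2.

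In CPM, Eno4 was highest in the unnamed cluster and next highest in round spermatids. It held 28.6 and 33.4 CPM in early spermatocytes, 43.6 in pachytene or later spermatocytes of each mouse, 58.7 and 66.2 in the unnamed cluster, 56.0 and 57.1 in round spermatids and 22.1 and 27.3 in elongating spermatids. The mice of the unnamed cluster and of the round spermatids did not overlap, although their 95% Poisson intervals did. Eno4 rose by 0.74 ± 0.19 (adjusted p = 0.00238) and 0.69 ± 0.16 (adjusted p = 0.000452) at the first steps. Per cell the second of these rises was not seen. Round spermatids of mouse 1 and mouse 2 held 0.858 and 0.9002 times the Eno4 UMIs per cell of pachytene or later spermatocytes. The third step was −0.33 ± 0.16, which did not pass (adjusted p = 0.0962). It did pass with the mouse as a block (−0.33, adjusted p = 0.0413) and by library size only (−1.20, adjusted p = 2.54e-06). No Eno4 UMI was found in the small clusters, where 3 UMIs would be 35.4 CPM in Sertoli-like, 59.2 in Leydig-like and 40.1 in spermatogonium-like cells. The exact 95% Poisson limit of a count of 0 lies higher, at 49.4 CPM in spermatogonium-like cells.

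**Figure D2:**
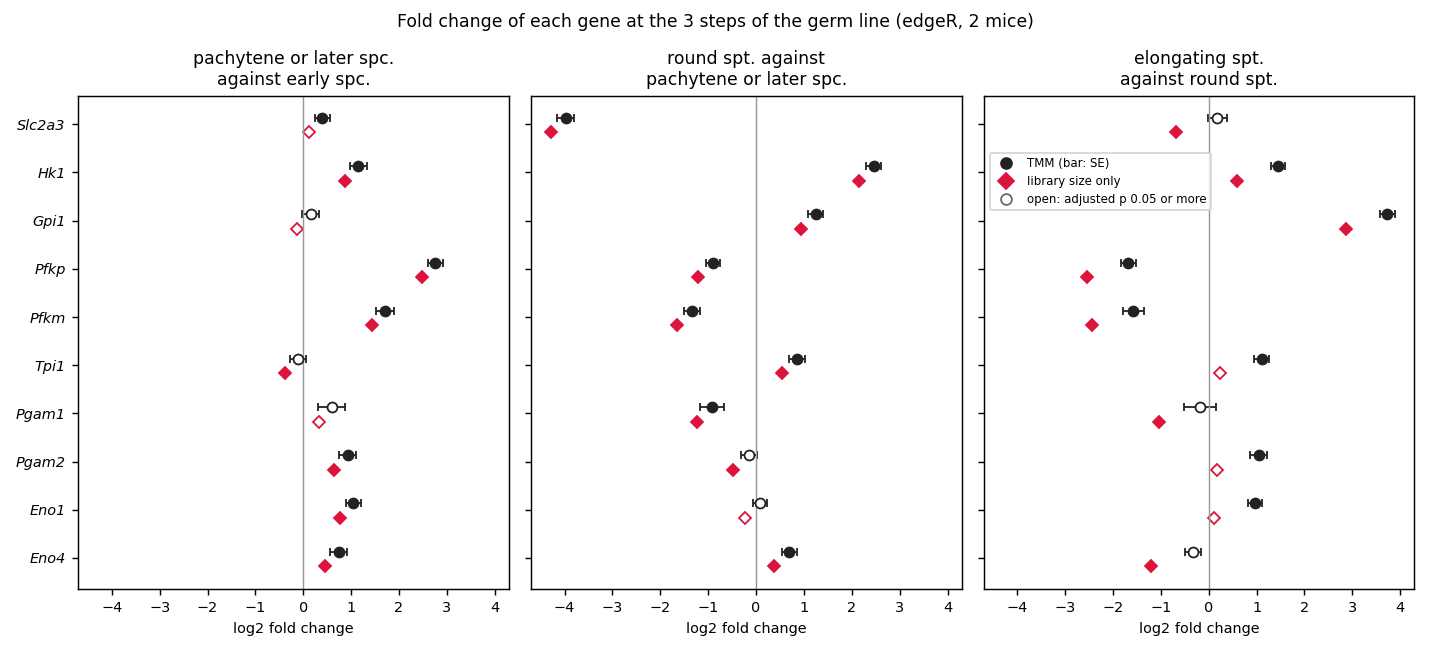
Log2 fold change (x axis) of each gene at the 3 steps, from edgeR on UMI sums of 2 mice per class. Black circles are TMM-scaled values with SE bars, red diamonds are values scaled by library size only, and open symbols have an adjusted p of 0.05 or more. Hk1, Pfkp and Pfkm are filled at each step under both scalings, and at the last step Tpi1, Pgam2 and Eno1 are filled under TMM only.

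The step from round to elongating spermatids depended on the scaling and on which elongating cluster was used. TMM factors ran from 0.527 in elongating spermatids to 1.55 in early spermatocytes. By library size only, the median of all rows moved to −0.88 at that step, only Hk1 and Gpi1 of the members were higher, and 5 members (Slc2a3, Pfkp, Pfkm, Pgam1 and Eno4) were lower, against 14.5% and 50.1% of all rows. The share of higher among all called rows then went from 51.0% to 22.5%, and at the earlier steps from 51.6% to 38.9% and from 49.7% to 42.7%. With DESeq2 size factors those shares were 41.1%, 56.1% and 55.7% in the order of the steps.

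Within the elongating class the members were not alike. The larger cluster, whose cells hold medians of 11304 and 12453 UMIs, had 777 and 1000.1 CPM of Hk1, 472 and 619.6 of Gpi1, 419 and 535 of Tpi1, 1083 and 1199 of Pgam2 and 155 and 155 of Eno1. The smaller cluster, with medians of 24178 and 23567 UMIs, had 531 and 573 CPM of Hk1, 271 and 314 of Gpi1, 268 and 309.7 of Tpi1, 687 and 734 of Pgam2 and 111 and 92.5 of Eno1. In CPM, both mice of the larger cluster lay above both of the smaller for each of these 5 genes. The share of all rows that separated in this way, in either direction, was not computed. Eno4 went the other way, with 16.9 and 18.1 CPM in the larger and 31.1 and 37.5 in the smaller cluster, as did Pfkp, with 18.03 and 14.3 CPM against 26.7 and 22.5. Pfkm, Pgam1 and Slc2a3 overlapped between the clusters. Per cell the order differed: Hk1 held 9.87 and 13.7 UMIs in the larger cluster of mouse 1 and mouse 2, against 12.7 and 15 in the smaller. Tpi1 held 5.32 and 7.30 against 6.42 and 8.10 UMIs per cell, and Gpi1 5.99 and 8.46 against 6.49 and 8.22. With the smaller cluster alone as the class, Hk1 (0.65, adjusted p = 0.000707) and Gpi1 (2.79, adjusted p = 1.77e-12) were higher than in round spermatids, where 22.6% of all rows were, while Tpi1 (0.29, adjusted p = 0.162), Pgam2 (0.25, adjusted p = 0.255) and Eno1 (0.21, adjusted p = 0.265) did not pass. With the larger alone, those 5 and Slc2a3 (0.55, adjusted p = 0.0282) were higher, as were 25.8% of all rows. The difference between the clusters was not tested.

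**Figure D3:**
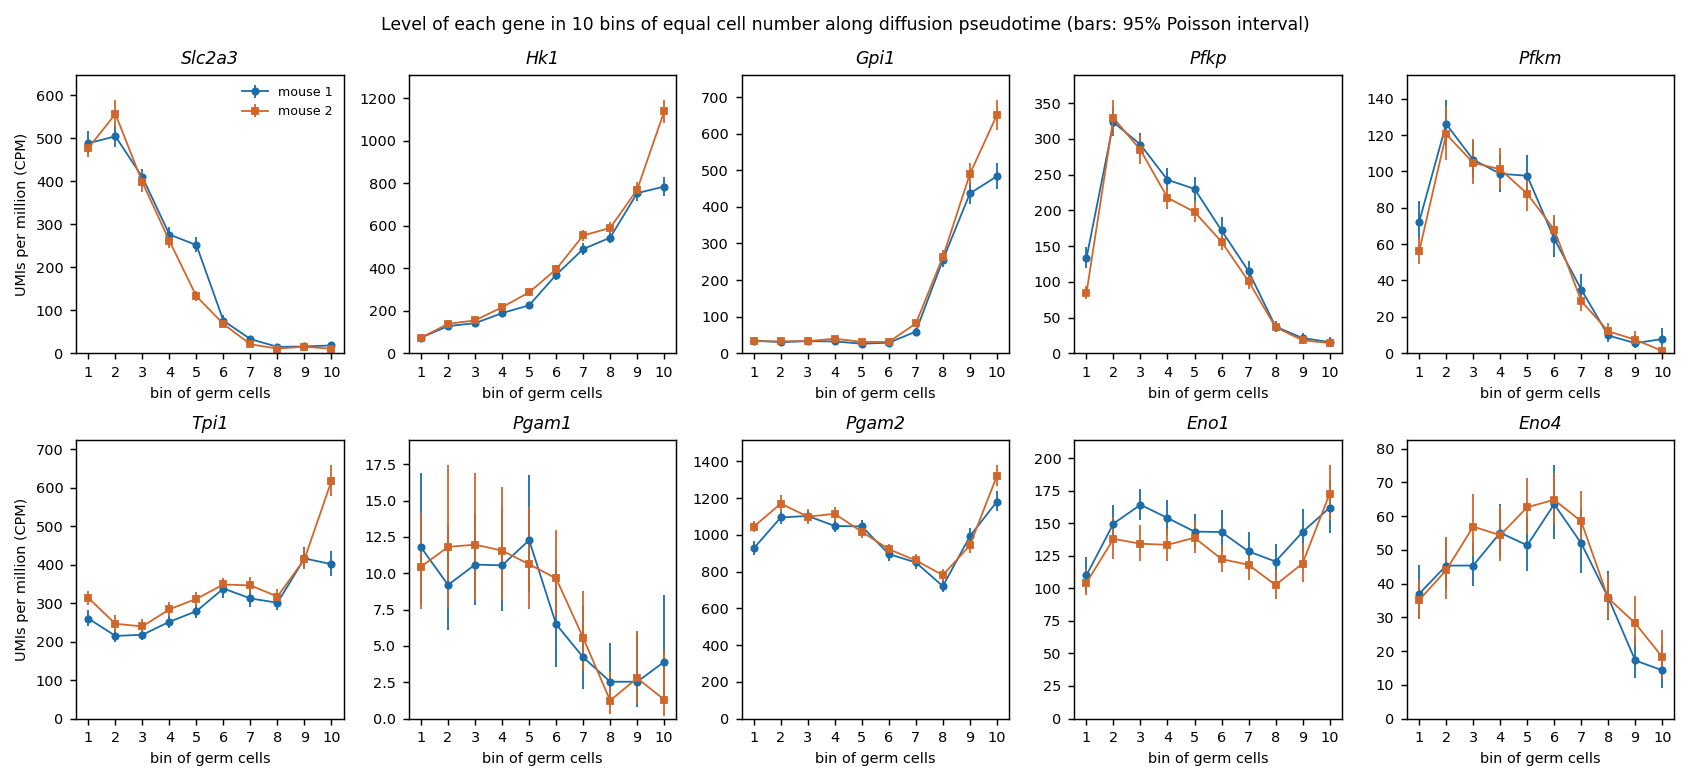
CPM of each gene (y axis, from 0) in 10 bins of equal cell number along diffusion pseudotime of the germ cells (x axis), with circles for mouse 1, squares for mouse 2 and 95% Poisson intervals. Slc2a3, Pfkp and Pfkm peak in bin 2 of both mice, Eno4 in bin 6, and Hk1, Gpi1 and Pgam2 in bin 10.

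Along diffusion pseudotime, computed without the 10 genes, 7 members peaked in the same bin in both mice. Bin 1 held all 163 early spermatocytes, bin 2 was almost all pachytene or later spermatocytes (250 cells), bins 3 to 5 were mostly the unnamed cluster and bins 9 and 10 only elongating spermatids. Slc2a3 peaked in bin 2 at 505 CPM in mouse 1 and 557 in mouse 2 and had fallen to 75.5 and 68.0 by bin 6. Pfkp peaked in bin 2 as well, at 323 and 329 CPM, and Pfkm at 126 and 120.5. Eno4 peaked in bin 6 at 63.5 and 64.8 CPM, the bin in which unnamed cells (107) and round spermatids (141) met. Gpi1 held 28.7 and 31.0 CPM in bin 6, 59.1 and 81.3 in bin 7, 255 and 263 in bin 8 and 484 and 651 in bin 10. Hk1 climbed in every bin, from 73.5 and 73.2 CPM in bin 1 to 784 and 1137 in bin 10. Pgam2 had a trough in bin 8 (720.4 and 781 CPM) before its peak in bin 10 (1181 and 1321). The peaks of Tpi1 (bins 9 and 10), Eno1 (bins 3 and 10) and Pgam1 (bins 5 and 3) differed between mouse 1 and mouse 2. In bin 10 mouse 2 was higher than mouse 1 for Hk1, Gpi1, Tpi1 (401 and 618 CPM) and Pgam2, with Poisson intervals that did not overlap.

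**Figure D4:**
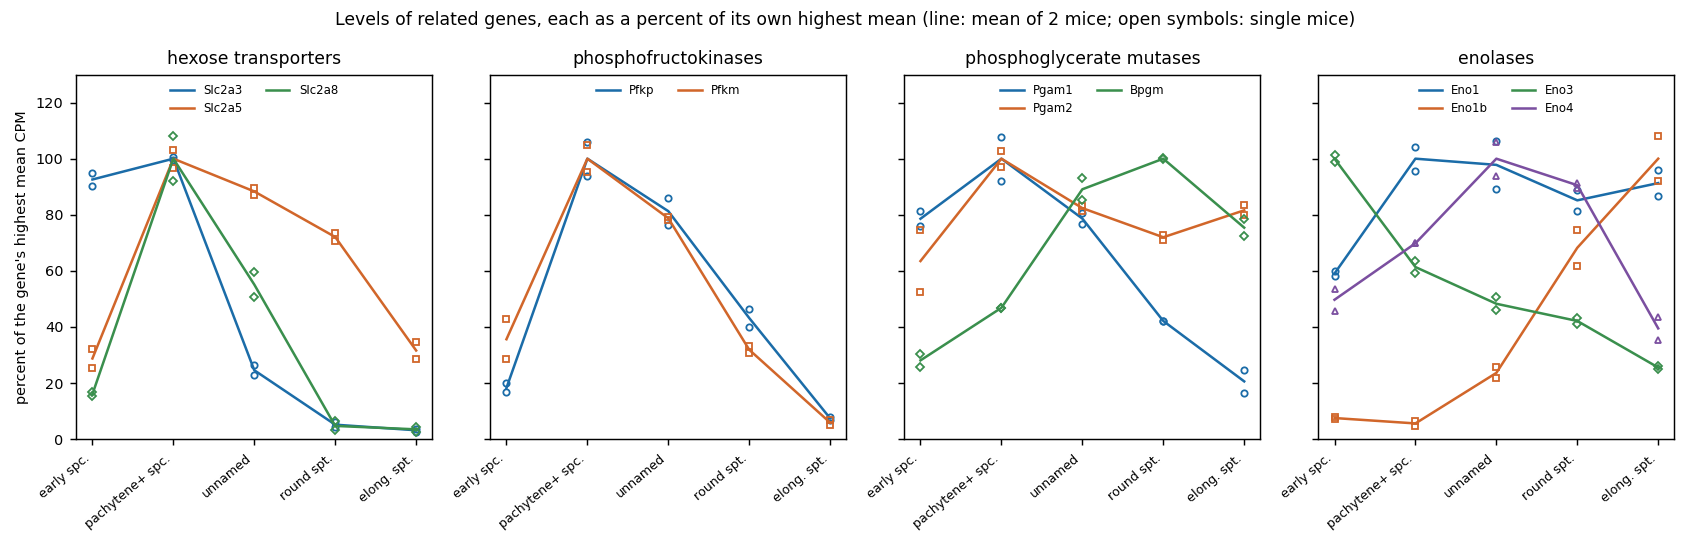
Levels of members and related genes as a percent of each gene's own highest mean CPM (y axis) across the germ cell groups (x axis), with lines for means of 2 mice and open symbols for single mice. Round spermatids held 5.17% of the highest mean for Slc2a3 and 72.1% for Slc2a5, and elongating spermatids held 7.42% for Pfkp and 5.89% for Pfkm.

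Among other hexose transporters, Slc2a5, which encodes the fructose transporter GLUT5, and Slc2a8, which encodes GLUT8, had over 100 UMIs. Slc2a8 also peaked in pachytene or later spermatocytes: it held 20.2 ± 1.17 CPM (SD, n = 2) in early spermatocytes, 126 ± 14.4 in pachytene or later spermatocytes, 69.5 ± 8.18 in the unnamed cluster, 5.96 ± 2.83 in round spermatids and 4.42 ± 1.49 in elongating spermatids. Slc2a5 held 112 ± 19.5, 388 ± 17.5, 343 ± 7.50, 279.9 ± 7.28 and 123 ± 16.1 CPM in the same order. It did not differ past the threshold between round spermatids and pachytene or later spermatocytes (−0.16 ± 0.15, adjusted p = 0.348, and −0.47 by library size only, adjusted p = 0.00253), where Slc2a8 fell by 4.15 ± 0.24 (adjusted p = 2.17e-12). Slc2a1 (7 UMIs), Slc2a4 (12), Slc2a9 (26) and Slc2a12 (41) were sparse, and Slc2a2 and Slc2a10 had 0 UMIs.

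The hexokinase genes Hk2 and Hk3 gave few UMIs in germ cells. Hk2 held 786 CPM in the 6 Sertoli-like cells of mouse 1 and 573 in the 1 such cell of mouse 2. It held no more than 7.39 CPM in any of the 5 tested germ cell groups of either mouse. At these low levels Hk2 rose by 2.81 ± 0.67 on the log2 scale (adjusted p = 0.00122, edgeR) from round to elongating spermatids. Hk3 gave 112 UMIs in all cells. Bpgm, bisphosphoglycerate mutase, was highest in round spermatids (291 ± 0.400 CPM), and rose by 1.41 ± 0.14 on the log2 scale (adjusted p = 9.97e-09) from pachytene or later spermatocytes. From there to elongating spermatids Bpgm changed by 0.46 under TMM (adjusted p = 0.00783) and by −0.41 by library size only (adjusted p = 0.00468). Eno3, the muscle enolase gene, was highest in early spermatocytes (40.2 ± 0.719 CPM) and lowest in elongating spermatids (10.3 ± 0.223 CPM), and none of its 3 steps passed under TMM, while all 3 were lower by library size only. Eno1b, a gene with a sequence close to Eno1, went from 1.30 ± 0.326 CPM in pachytene or later spermatocytes to 23.2 ± 2.61 in elongating spermatids. Of the 403 windows of 98 bases in the last 500 bases of Eno1 transcripts, 49.1% were identical in Eno1b, so the counts of Eno1 and Eno1b are uncertain against each other. The other members shared none of these windows with another annotated transcript, apart from 3.47% in a short transcript of Tpi1 with Tpi-rs11 (3 UMIs).

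Of 42 other listed genes of glycolysis and of hexose and lactate transport, 28 were tested. In pachytene or later against early spermatocytes 9 were higher and 6 lower, with a median log2 fold change of −0.14 where the 10 members had 0.83. Of all rows tested, 24.9% were higher and 23.4% lower at that step. With DESeq2 the first step gave 7 higher and 9 lower, against 2718 and 3926 of all 14994 rows. In round spermatids 16 were higher and 7 lower (median 1.46, members −0.04), against 37% and 37.3% of all rows. In elongating against round spermatids 19 were higher and 0 lower (median 0.90, members 0.57), against 27.1% and 26% of all rows. At an unadjusted p under 0.05 edgeR gave 2 lower, a threshold at which the share of all rows was not computed. DESeq2 gave 0 lower at an adjusted p under 0.05, against 3076 of all 14994 rows. With the mouse as a block 2 of 28 were lower (4247 of all 14994 rows), and without the filter on low counts 2 of 38 (4385 of 27523 rows). The larger elongating cluster alone gave 4 of 28 lower (4508 of 14392 rows). The unnamed cluster joined to round spermatids gave 5 of 29 lower (5550 of 15069 rows). By library size only the last step gave 8 higher and 8 lower of the 28, where 14.5% of all rows were higher and 50.1% lower.

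The mice differed in level for several members. Over all cells Hk1 (log2 ratio of mouse 2 to mouse 1 of 0.27), Gpi1 (0.20) and Tpi1 (0.22) were higher in mouse 2, and Pfkp (−0.32), Slc2a3 (−0.31), Pfkm (−0.22) and Eno1 (−0.20) were lower, while Pgam2 had a log2 ratio of 0.02. These are values of 1 animal against another, and the mice also differed in the share of cells in each class, for example 24.8% and 16.7% of cells in the pachytene or later class. Within the germ cell groups the log2 ratio ran from 0.04 to 0.28 for Hk1 and from −0.25 to −0.17 for Pfkp. Slc2a3 in spermatocytes differed by 0.07 in the early and −0.02 in the pachytene or later class, and by −0.49 in round spermatids.

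Markers of other cell types were found in the germ cell sums at levels that differed between them. Of 16 listed Sertoli markers the summed level was 162 and 54.9 CPM in early spermatocytes of mouse 1 and mouse 2 and 17.2 to 57.2 CPM in the other named classes, against 23264 and 27162 CPM in the Sertoli-like cells, and 2 to 6 of the 16 were at 0 in each of these sums. The 9 Leydig markers summed to 25.4 to 63.3 CPM, against 35432 and 39414 CPM in the Leydig-like cells. The 4 red blood cell markers summed to 3.07 to 8.12 CPM in mouse 1, but in mouse 2 to 260.3 CPM in pachytene or later spermatocytes and 96.1 in elongating spermatids, against 6.93 to 10.1 in its other groups. The 10 immune markers summed to 1.63 to 33.2 CPM and the 10 peritubular or endothelial markers to 4.62 to 8.09. The 14 spermatogonium markers summed to far more, 1667 and 1627 CPM in pachytene or later spermatocytes and 346 to 1340 in the other germ cell groups. In the spermatogonium-like cells they summed to 2728 and 1593 CPM, so their sum did not set these cells of mouse 2 apart. Pgam2 gave 21 UMIs (248 CPM) in the 7 Sertoli-like cells and 2 UMIs (39.4 CPM) in the 5 Leydig-like cells. The part of such RNA in the members' levels, or in their differences between the mice, was not tested.

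The genes most like each member were taken as those with the highest Pearson correlation of log2(CPM + 10) over the 10 sums of mouse and group, among 7865 genes with at least 500 UMIs. The sums share 2 mice and their libraries, so these values only describe similarity. Hk1 was close to Hmox2 and Desi1 (r = 0.997 each). Gpi1 was closest to Yod1, Gm37406 and Spatc1 (0.998, 0.997 and 0.997), and Pfkp to Vps26a, Catsper2 and Hsbp1 (0.999, 0.999 and 0.995). Pfkm was closest to Prss56, Crbn and Phospho2 (0.995 each), Slc2a3 to Diablo, Gin1 and Bbs10 (0.998, 0.997 and 0.996) and Eno4 to Mapk10, Cfap45 and Iqub (0.993, 0.990 and 0.988). Weaker matches were found for Eno1 (4930556M19Rik, 4930539J05Rik and Gt(ROSA)26Sor, from 0.981 to 0.967), Pgam2 (Pgp, Hspb9 and Gm45185, from 0.951 to 0.930) and Tpi1 (Ercc5, Fbxl15 and Prkcz, from 0.917 to 0.909). Among the members, Pfkp and Pfkm had r = 0.935, Hk1 and Slc2a3 r = −0.963, and Hk1 and Gpi1 r = 0.728.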

How the data were processed

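Single-cell suspensions of testis tissue from 2 mice were barcoded with 10x Chromium 3′ v2 chemistry. As deposited, the values are UMI counts per row and cell barcode, which the authors made with Cell Ranger 2.0.0 (bcl2fastq 2.17.1.14) on a repeat-masked GRCm38 genome and annotation with repeat elements added. After counting, the authors combined the mice with downsampling of the more deeply read one, and the table holds barcodes called as cells only. The mouse was read from the barcode suffix.

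Here, cells were scaled, log-transformed and clustered by K-means (K = 9, 10 principal components, 27742 rows, members and pathway genes left out). A cluster was named after its best-scoring class (mean z-score of the listed markers) where at least 3 markers of that class reached 1.5 times their CPM over all cells, and otherwise stayed unnamed. Of the barcodes, 25 (0.980%) were called as doublets and were kept. UMI sums per mouse and class, for groups of at least 50 cells, were compared with edgeR 4.0.16 (TMM, filterByExpr, quasi-likelihood test, Benjamini-Hochberg threshold 0.05) in 1 fit over 10 sums. The script was tested on simulated data. DESeq2 1.42.0, library size scaling, thinning to 5000 UMIs, other clusterings and the mouse as a block were alternatives. The other clusterings were close to the main one. Of 2552 cells, 2549 kept their class name with K = 10, 2551 with the members and pathway genes kept in, and 2547 without repeat rows.

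The members, gene lists and markers were chosen with earlier results of these data known. Named genes were all members, their paralogs with at least 100 UMIs (fewer given as counts), their copies, and the 3 genes most like each member. Some genes that this rule names are not reported here. Sums with the same number come from the same animal, and their deviations from the group means correlated by 0.0332 to 0.203 over 10 pairs of groups and 14994 genes. Positions are from GENCODE M21 and motif windows from RefSeq.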

Additional observations from a re-analysis of the deposited data

How the results depend on the processing

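The 3 steps are pachytene or later against early spermatocytes, round spermatids against pachytene or later spermatocytes, and elongating against round spermatids. Among 420 log2 fold changes recomputed under alternatives with a test, 379 kept direction and side of the threshold, 13 no longer passed, 12 newly passed and 16 changed sign, and the cause was not tested. With library size only (chosen after seeing the data), 1 member was lower at the first step, where 4559 of all 14994 rows were lower. At the third step 2 members were higher and 5 lower, against 14.5% and 50.1% of all rows. The smaller elongating cluster alone gave 2 members higher at the third step, where 22.6% of all rows were higher. That setting, the larger cluster alone, and the unnamed cluster joined to pachytene or later spermatocytes were also chosen after seeing the data. Joining the unnamed cluster to round spermatids, its best class, gave 5 members lower at the third step, where 5550 of all 15069 rows were lower. Leaving out either mouse leaves 1 sum per class and no test. Every called member then kept its direction, but the calls were made from these same 2 mice, so this is no separate support. Of the 60 values with 1 mouse left out, 2 changed sign, both without mouse 2 and neither called: Tpi1 at the first step (0.17, and −0.30 without mouse 1) and Pgam1 at the third (0.08, and −0.45). With the mouse as a block the members higher and lower were 7 and 0, 4 and 4, and 5 and 3 in the order of the steps. The added call was Eno4 at the third step (−0.33), and the block changed no other call. Of all 14994 rows, the block gave 4030 higher and 3818 lower at the first step, 5710 and 5897 at the second, and 4322 and 4247 at the third.

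The 16 changes of sign under alternatives with a test were these. At the first step Gpi1 was −0.074 with DESeq2, −0.074 with DESeq2 size factors, −0.00080 with thinned cells and −0.12 by library size only. Tpi1 was 0.024 with thinned cells and 0.13, and Slc2a3 −0.16, with the unnamed cluster joined to pachytene or later spermatocytes. At the second step Pgam2 was 0.073 with DESeq2, 0.073 with its size factors and 0.0054 with thinned cells, and Eno1 was −0.23 by library size only. At the third step Pgam1 was 0.48 with thinned cells and 0.16 with the larger elongating cluster alone. Slc2a3 was −0.68 by library size only, −0.38 with the smaller elongating cluster alone and −1.56 with the unnamed cluster joined to round spermatids. Of the members whose log2 ratio of mouse 2 to mouse 1 over all cells had an interval without 0, the sign changed within classes for Gpi1 (−0.021, unnamed cluster), Pfkm (0.58, early spermatocytes), Eno4 (−0.0014, pachytene or later) and Slc2a3 (0.073, early spermatocytes). Pgam1, whose interval took in 0 (−0.06), was 0.10 in early, 0.23 in pachytene or later and 0.08 in unnamed cells.

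Depth limits Pgam1 most, with 29 UMIs in all elongating spermatids, and the early spermatocytes, with 52 cells in mouse 1. Classes come from 2 mice, so each level rests on n = 2, and rebuilt class names may differ from those of the study.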
